A study of Canis lupus familiaris with 124 samples.

Results

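The estrogen receptors ESR1 (ENSCAFG00000000430) and ESR2 (ENSCAFG00000015846) and the progesterone receptor PGR (ENSCAFG00000003978) were followed through RNA sequencing data of canine prostatic and urothelial tumors and of cell lines derived from them. These are 3 of the 32183 genes in the count tables, chosen by name and identifier and not by their values. ESR1, ESR2 and PGR encode nuclear receptors, which are transcription factors switched on by a steroid hormone. ESR1 encodes estrogen receptor alpha and ESR2 estrogen receptor beta. Both bind estradiol, attach to DNA as dimers at estrogen response elements and change the transcription of nearby genes with the help of coactivators and corepressors. PGR, the receptor for progesterone, is a textbook target gene of ESR1 in the female reproductive tract. In the prostate, ESR1 is mostly described in stromal cells and ESR2 in epithelial cells, and in the bladder both have been described in the urothelium.

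The study compared cell lines with original tissues of 2 tumor classes, adenocarcinoma of the prostate (PAC) and the transitional cell carcinoma of the urothelium (TCC). All samples come from pet dogs with spontaneous tumors, without an experimental treatment. Of the 8 cell lines, TCC0840, TCC1506 and TCC1509 were grown from TCC, Adcarc0846, Adcarc1508 and Adcarc1511.1 from PAC, and 2 lines from PAC metastases, namely Metadcarc1511.2 and Metadcarc1511.3. The 9 tissues comprised the PAC P2, the PAC lymph node metastases Ln4.2 and Ln4.3, the prostate TCC P6.1 with its lymph node metastasis Ln6.2, and the bladder TCC B7, B8, B9 and B10. Of the cell lines, 5 are paired with the tissue they were grown from, namely Adcarc0846 with P2, Metadcarc1511.2 with Ln4.2, Metadcarc1511.3 with Ln4.3, TCC1509 with P6.1 and TCC1506 with B7.

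P2 was from a male German Rough-haired Pointer of 6 years. Ln4.2, Ln4.3 and their cell lines, as well as Adcarc1511.1, came from 1 neutered male Dobermann of 6 years. P6.1, Ln6.2 and TCC1509 came from 1 neutered male Bolonka Zwetna of 9 years. B7 and TCC1506 were from a female Labrador Retriever of 10 years, B8 from a female Cairn Terrier of 11 years, B9 from a neutered female Miniature Pinscher of 8 years and B10 from a female German Shepherd of 8 years. Adcarc1508 was from a neutered male of mixed breed of 11 years and TCC0840 from a neutered male Pitbull Terrier of 10 years, and no tissue of these dogs was used here. The bladder tissues are all from females and the other tissues all from males, so organ and sex cannot be told apart, and the histological class goes with them in part.

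Adcarc0846 and TCC0840 had 2 libraries and the other cell lines 3, which were flasks of 1 line at passages between 68 and 448, so that their spread is that between cultures and not between dogs. Each tissue had 1 library. Cell lines were grown in Medium 199 with fetal calf serum, and RNA was extracted with another kit from cells than from tissues. The kit and the kind of sample cannot be told apart. The 22 cell line libraries held between 15355798 and 19935282 counts and the 9 tissue libraries between 11920463 and 18086895. Levels are given as counts, as CPM (counts relative to the library size, scaled with TMM factors) to compare a gene between samples, and as TPM, in which counts are divided by transcript length, to compare genes within a sample. A total of 3 counts, taken as the detection floor, corresponded to 0.137 to 0.211 CPM in a cell line library and 0.162 to 0.233 CPM in a tissue. Intervals are exact 95% Poisson intervals and cover counting error only.

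Markers bear on what these samples hold. In the tissues, the 5 leukocyte markers (CSF1R, SPI1, TYROBP, LAPTM5 and CD74) summed to 231 to 4790 TPM and the 5 fibroblast markers (COL1A1, COL1A2, COL3A1, DCN and POSTN) to 145 to 33700 TPM, with none of them at 0 counts. In the cell lines the sums were 0.0356 to 466 TPM and 0.0603 to 710 TPM, and 2 to 4 of the leukocyte markers were at 0 counts. The 5 epithelium markers (EPCAM, CLDN7, MAL2, LAD1 and OVOL2) summed to 144 to 2290 TPM in the cell lines. Among the tissues they were lowest in Ln6.2 with 44.7 TPM, where OVOL2 was at 0 counts and CLDN7 and MAL2 at 1 count each, and in P2 with 45.2 TPM. The other 7 tissues ranged from 809 to 3130 TPM. In bulk RNA, fewer cells of a type and less RNA per cell cannot be told apart.

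ESR1 was the more widely detected estrogen receptor of the tissues. It was above the floor in 9 of 9 tissues and reached at least 10 counts in 8 of them, but only in 3 of 22 cell line libraries, all of TCC1506. Of the other 19 libraries, 9 held 0 counts, and no count exceeded 3. ESR2, by contrast, was above the floor in a single tissue, the metastasis Ln6.2, and in no cell line. PGR was above the floor in 6 tissues and, among the cell lines, in TCC1506.

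**Figure D1:**
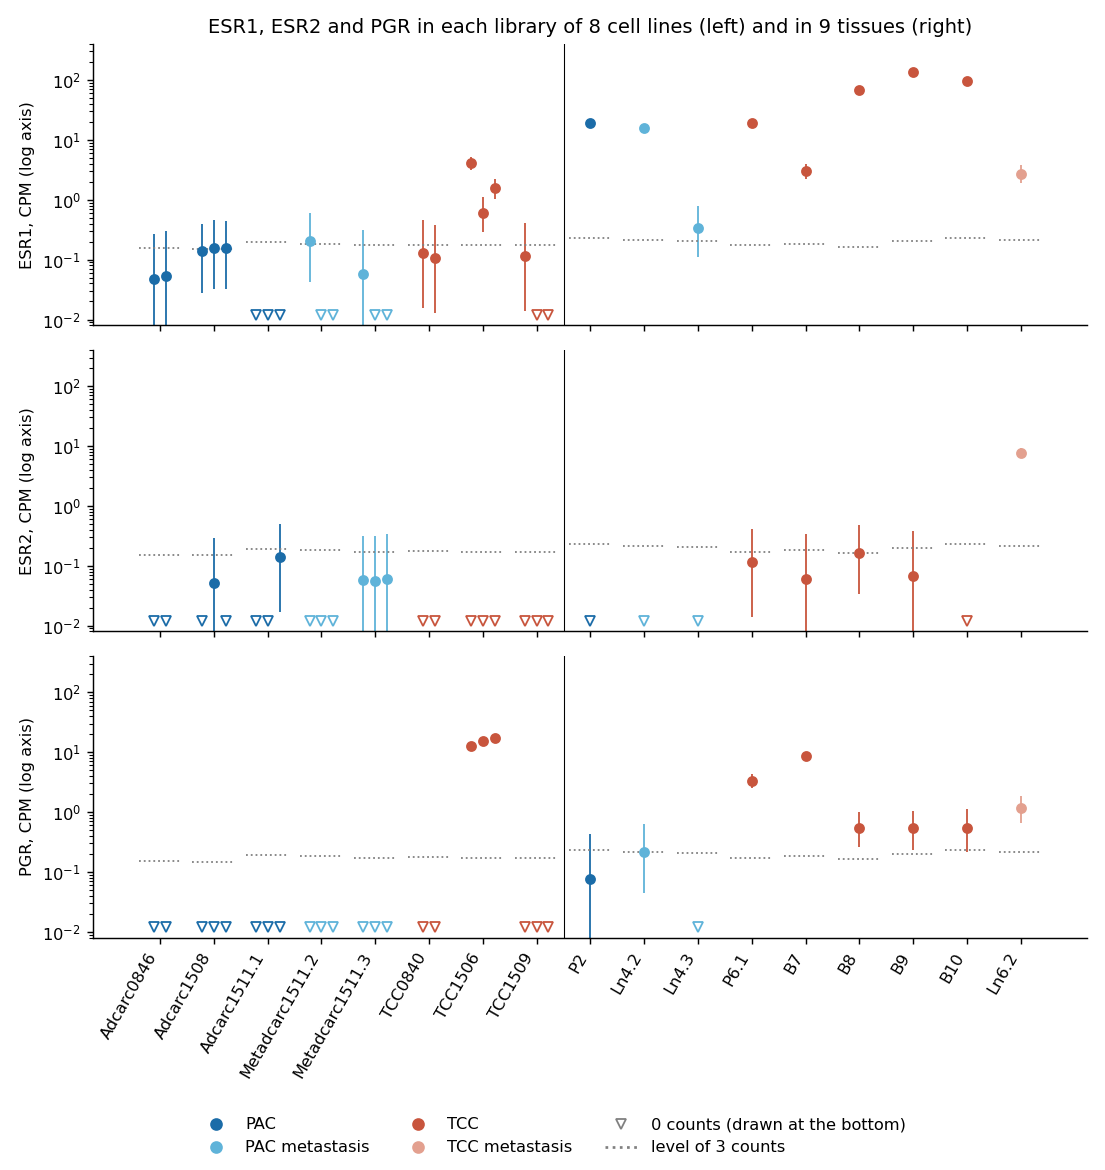
CPM (log axis) of ESR1, ESR2 and PGR in each library of the 8 cell lines, on the left, and in the 9 tissues, on the right. Points are libraries with exact 95% Poisson intervals, open triangles are libraries at 0 counts and dotted lines mark 3 counts. ESR1 lay above the dotted line in every tissue, whereas PGR lay above it in the 3 TCC1506 libraries and in no library of the other lines.

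In the tissues, ESR1 ranged over more than 2 orders of magnitude. It was highest in the bladder TCC B9 with 2007 counts or 135 CPM (interval 130 to 141), followed by B10 with 1258 counts or 96.9 CPM (91.6 to 102) and B8 with 1245 counts or 67.1 CPM (63.5 to 71.0). These intervals did not overlap. In TPM, ESR1 in B9 (33.2) exceeded 73.6% of the genes detected in that tissue.

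A middle group followed at a 3.53-fold lower level than B8. The PAC P2 had 245 counts or 19.0 CPM (16.7 to 21.6), the prostate TCC P6.1 had 327 counts or 18.8 CPM (16.8 to 21), and the PAC metastasis Ln4.2 had 224 counts or 16 CPM (14 to 18.2). The order within this group did not exceed counting error. The fourth bladder tumor, B7, stood far below the other 3 with 49 counts or 3.00 CPM (2.22 to 3.97), and was not told apart from the TCC metastasis Ln6.2 with 38 counts or 2.73 CPM (1.93 to 3.74). The lowest level was that of Ln4.3, with 5 counts or 0.344 CPM (0.112 to 0.802).

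Ln4.2 and Ln4.3 are metastases in lymph nodes of the same dog, yet ESR1 was well above the floor in one and close to it in the other. P6.1 and Ln6.2, primary tumor and metastasis of another dog, also had non-overlapping intervals. The order of the tissues by ESR1 was not that by fibroblast markers. The 3 tissues with the most ESR1, B8, B9 and B10, had summed fibroblast markers of 270, 499 and 199 TPM, while P2, with the highest sum of 33700 TPM, had ESR1 at 4.38 TPM. The epithelium markers were highest in these same 3 bladder tumors, at 2950, 3130 and 2010 TPM. In Ln4.3, the tissue lowest in ESR1, they were at 929 TPM, which is the median of the tissues. The part of any cell type in the ESR1 levels was not tested.

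PGR had another order in the tissues. B7, low in ESR1, was highest with 140 counts or 8.57 CPM (7.21 to 10.1). P6.1 followed with 57 counts or 3.28 CPM (2.48 to 4.25), 2.61-fold lower and with no overlap. Ln6.2 had 16 counts or 1.15 CPM (0.656 to 1.86).

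B9, B10 and B8, the tumors richest in ESR1, had 8, 7 and 10 counts of PGR, which is between 0.539 and 0.540 CPM, with intervals that all overlapped that of Ln6.2. The PAC and PAC metastasis tissues were at or under the floor, with 3 counts in Ln4.2, 1 in P2 and 0 in Ln4.3. The floor of 3 counts is 0.206 CPM in Ln4.3, and the upper bound of its exact interval is 0.254 CPM. All 6 TCC tissues, metastasis included, were thus above the floor of PGR and none of the 3 PAC tissues.

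Per length, ESR1 exceeded PGR 58.7-fold in B8, 84.4-fold in B10, 118-fold in B9 and 2.71-fold in P6.1. In Ln6.2 the levels of both were similar, at 0.585 TPM for ESR1 and 0.522 TPM for PGR. In B7 the ratio turned round, with 4.27 TPM of PGR against 0.706 TPM of ESR1, or 6.05 times more PGR. Over the 9 tissues, the log2 CPM of both receptors had a Pearson r of -0.21 and a Spearman rho of 0.03, which is a description of 9 tissues from 7 dogs. Without Ln4.3 and B9, the tissues farthest from the median of ESR1, r was -0.55, and without B7 and P6.1, those farthest from the median of PGR, it was 0.24, so it has no stable sign.

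**Figure D2:**
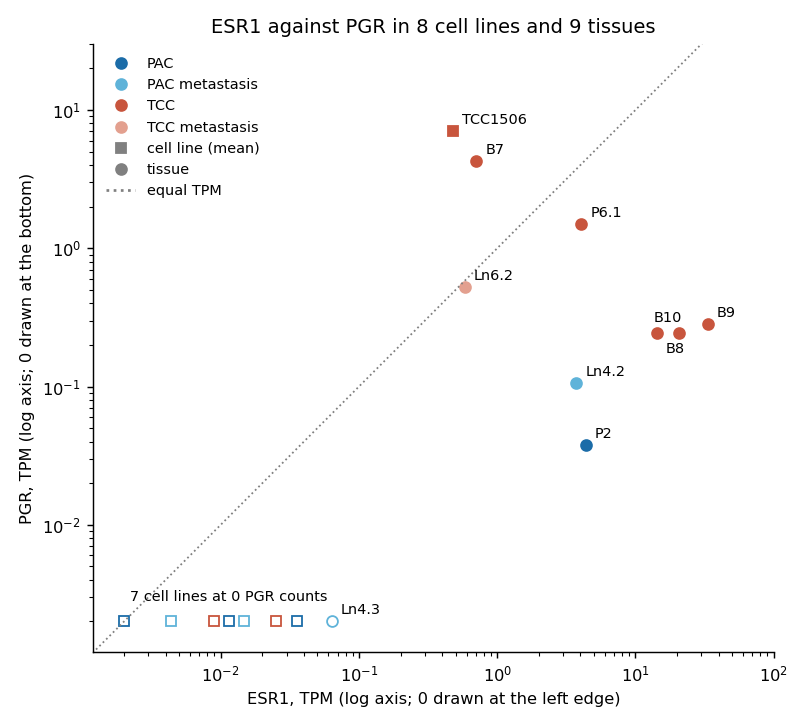
TPM of ESR1 (horizontal) against TPM of PGR (vertical), both on log axes, in 8 cell lines (squares, mean over libraries) and 9 tissues (circles). Open symbols are at 0 counts of a receptor and are drawn at the edge. B7 and its cell line TCC1506 lie above the dotted line of equal TPM, whereas B8, B9 and B10 lie far below it.

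ESR2 exceeded the floor of 3 counts in 1 sample of the series. Ln6.2 held 108 of the 115 ESR2 counts of all tissues, at 7.75 CPM (6.36 to 9.36), and its reads were spread over all 4 sequencing lanes. At 6.82 TPM, ESR2 was the most abundant of the 3 receptors in this metastasis and exceeded 47.4% of the genes detected there. The next tissue, B8, had 3 counts, P6.1 of the same dog had 2 and TCC1509, the cell line of that dog, had 0 in its 3 libraries. B9 and B7 had 1 count each and Ln4.2, Ln4.3, P2 and B10 had 0.

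Ln6.2 also stood at the low end of the epithelium markers, as given above, and had 16200 TPM of fibroblast and 1820 TPM of leukocyte markers, both within the range of the other tissues. Their part in its ESR2 level was not tested. Among the cell lines, ESR2 reached 1 count in 1 library of Adcarc1508, 2 counts in 1 library of Adcarc1511.1 and 1 count in each of the 3 libraries of Metadcarc1511.3. No ESR2 was detectable in the other 5 cell lines, where the floor of 3 counts over the pooled libraries is 0.0575 to 0.0868 CPM.

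Whether the receptors were kept in culture was asked in the 5 pairs of a line with its tissue of origin. By counting error, the pooled level of ESR1 was lower in all 5 cell lines than in their tissues, but narrowly so in TCC1506, and the level in B7 lay within the range of the TCC1506 libraries. PGR was present in TCC1506 and not detected in TCC1509, and the other 3 pairs were at or under the floor on both sides.

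The largest gap in ESR1 was that of TCC1509, which held 2 counts in 3 libraries against 327 in P6.1, a level 490-fold higher in the tissue (counting interval 135 to 4060). Adcarc0846 held 2 counts in 2 libraries against 245 in P2, 372-fold (102 to 3090). Metadcarc1511.2 held 3 counts in 3 libraries against 224 in Ln4.2, 266-fold (89.9 to 1300). For Metadcarc1511.3, with 1 count against only 5 in Ln4.3, the ratio was 17.9-fold with an interval of 2.01 to 848. TCC1506 held 109 counts against 49 in B7, and the level of the line was 0.697 times that of the tissue, with 0.997 as the upper bound of the counting interval. This bound leaves out the spread between the TCC1506 libraries, which was larger than the difference.

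PGR in TCC1509 was at 0 in all 3 libraries against 57 counts in P6.1. The tissue was 56.9-fold higher when the line is set at the floor of 3 counts, and the exact counting interval starts at 44.8-fold. In TCC1506, 790 counts were pooled from 3 libraries, and the level was 1.77 times that of B7 (1.47 to 2.13).

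**Figure D3:**
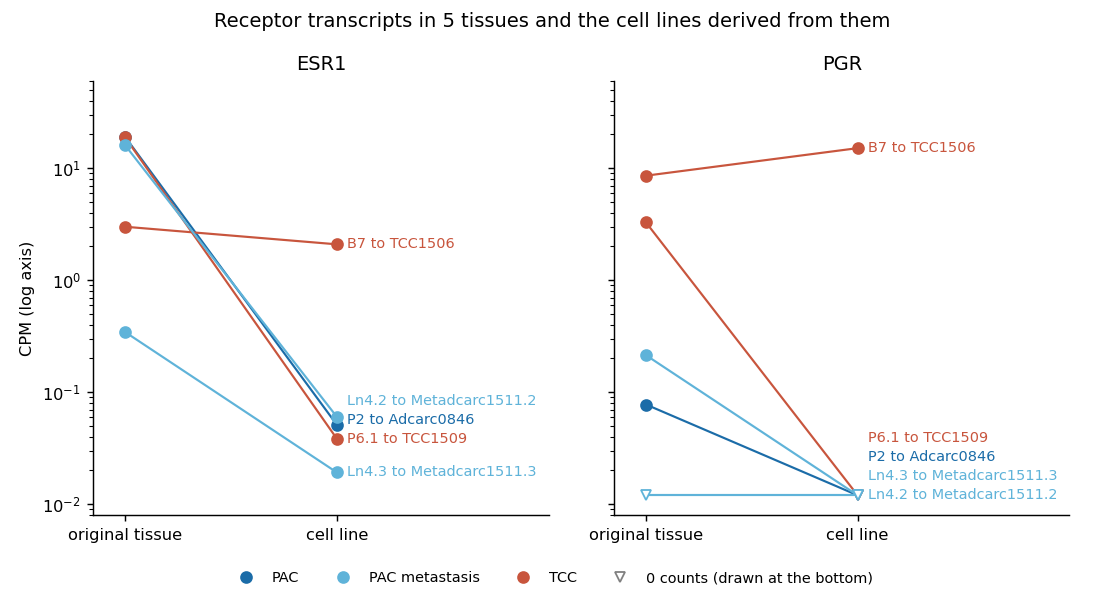
CPM (log axis) of ESR1 and PGR in 5 tissues and in the cell lines derived from them (libraries pooled), with a line for each pair. Open triangles are at 0 counts. In ESR1 the lines of 4 pairs slope down by 17.9-fold to 490-fold, whereas that of B7 and TCC1506 slopes down by 1.44-fold, and in PGR it slopes up by 1.77-fold.

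Over the 5 pairs, edgeR gave ESR1 a log2 fold change (cell line over tissue) of -6.56 (SE 1.80), with an adjusted p of 0.0743 by the quasi-likelihood test with Benjamini-Hochberg adjustment, and PGR one of -3.89 (SE 2.21, adjusted p = 0.30). Neither passed the threshold of an adjusted p of 0.01 and a fold change of 2, which 1.61% of the 15252 genes tested did. With an unadjusted p of 0.0103, ESR1 was 1 of 4619 genes under 0.05. DESeq2 called ESR1 in the same pairs, with a log2 fold change of -6.78 and an adjusted p of 4.15e-08, and did not call PGR. The sign of PGR rested on the pairing, since without the pair as a covariate its log2 fold change was 0.33 (adjusted p = 0.937). The pairs of Ln4.2 and Ln4.3 share a dog. With these pairs summed, ESR1 was at -7.03 (SE 2.09, edgeR adjusted p = 0.173). The sample numbers in the labels run in 2 series. The series of the tissues holds 2 of the pairs, P2 with Adcarc0846 and B7 with 2 of the 3 TCC1506 libraries. With these libraries only, ESR1 was at -4.15 (edgeR adjusted p = 0.998). ESR2 was too low to enter this test.

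With all 8 cell lines set against all 9 tissues, ESR1 was lower in the cell lines. The tissues ranged from 0.344 to 135 CPM with a median of 18.8, and the cell lines from 0 to 2.07 CPM with a median of 0.0594. The groups overlapped, because Ln4.3 lay below TCC1506. The log2 fold change was -6.94 (SE 1.41, edgeR adjusted p = 0.00139), which passed the threshold, as did 12.1% of the 15287 genes tested in this direction (15.9% in either). It passed in each of the 17 fits that left out 1 sample (-9.24 to -6.44). It did not pass with the dog as a covariate (-7.10, adjusted p = 0.0131).

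The series of sample numbers that holds all tissues also holds Adcarc0846, TCC0840 and 2 of the 3 TCC1506 libraries. With these libraries only, ESR1 was at -5.55 and did not pass (adjusted p = 0.0854), and PGR was at 1.51 (adjusted p = 0.591). In the comparison of all 8 cell lines with all 9 tissues, many stromal and leukocyte markers passed in the direction of ESR1. Of the leukocyte markers 4 of 5 fell, of the fibroblast markers 3 of 5, of the endothelium markers (KDR, TEK, VWF and FLT4) 3 of 4, as did ACTA2, the smooth muscle actin (-6.73, SE 1.43), whereas 0 of 5 epithelium markers passed in either direction by edgeR (1 had an unadjusted p under 0.05, and DESeq2 called 1, beside 43.0% and 21.2% of all genes). FLT4, DCN, COL3A1 and CD74 did not pass. The part of these cells in the difference of ESR1 was not tested.

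For PGR, the same comparison gave no common direction, with a log2 fold change of 0.21 (SE 1.67, adjusted p = 0.937). It rested on 1 cell line. Without TCC1506, PGR was at 0 counts in all 7 cell lines and the log2 fold change became -8.60 with an adjusted p of 0.00276, where the size depends on the prior count used for 0. With the dog as a covariate it was -3.93 (adjusted p = 0.0992). DESeq2, with its default replacement of outlying counts left on, gave -4.41 (adjusted p = 0.00774). Whether the count of TCC1506 was replaced in that fit was not checked. ESR2 did not enter the test, and without a count filter it was not called (-5.38, adjusted p = 0.0138), beside 13.3% of genes that were. Ln6.2 held 108 of the 115 counts in the tissues.

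Among the cell lines, TCC1506 stood alone in both ESR1 and PGR. Its PGR counts were 220, 259 and 311, or 12.6, 15.6 and 17.2 CPM, with a mean of 15.1 ± 2.35 CPM (SD, n = 3). Each of the 19 libraries of the 7 other lines was at 0. With the floor of the pooled libraries of each line used in place of 0, the level in TCC1506 was 174-fold that of TCC0840. It was 305-fold that of Adcarc1508, with the other lines in between. These ratios differ only through the pooled depth of the other lines, all at 0 counts, and do not rank them. PGR passed the count filter of the test among the 8 lines through TCC1506 alone. The test and its contrasts thus restate that PGR was present in 1 line, with flasks of that line as replicates. The edgeR adjusted p was 2.61e-06, and 68.6% of the 13128 genes tested passed. In the contrasts of all 28 pairs of lines, PGR passed in the 7 that contain TCC1506 (adjusted p between 1.37e-05 and 6.28e-05), against 21.2% to 28.9% of all genes in those contrasts, and in no other.

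ESR1 in TCC1506 was lower and more variable, with counts of 71, 10 and 28, or 4.05, 0.604 and 1.55 CPM, and a mean of 2.07 ± 1.78 CPM (SD, n = 3). The other lines had 0 to 9 counts in all their libraries together. Adcarc1508, with 3 counts in each of its 3 libraries, was the next at 0.149 ± 0.0110 CPM (SD, n = 3), and TCC0840 had 2 counts in each of 2 libraries at 0.117 ± 0.0147 CPM (SD, n = 2). Adcarc1511.1 was at 0 in its 3 libraries. ESR1 fell under the filter of a mean of 10 counts. Without a filter it differed among the lines (edgeR adjusted p = 1.81e-09), as did 44.9% of the 23501 genes then tested. It passed in the 7 contrasts with TCC1506 (adjusted p of 0.00116 or less, beside 14.9% to 19.5% of genes) and in no other. At 0 to 9 counts per line, the contrasts among the 7 other lines cannot settle their order.

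The 3 libraries of TCC1506 were from passages 98, 106 and 107. ESR1 was highest at passage 98, with 6.71 times the level of passage 106 and 2.62 times that of passage 107, and the 3 pairwise differences had adjusted p-values of 3.61e-11, 2.12e-05 and 0.0133 in exact binomial tests (2-sided, 6 tests over both genes). PGR was lowest at passage 98, at 0.803 and 0.731 times the levels of the other libraries (exact binomial tests, adjusted p = 0.0209 and 0.00073), and did not differ beyond counting error between passages 106 and 107 (adjusted p = 0.276). These tests compare single libraries by counting error alone. Over all genes, libraries of 1 line differed by 25.7 to 175 times the counting variance, which these tests leave out.

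**Figure D4:**
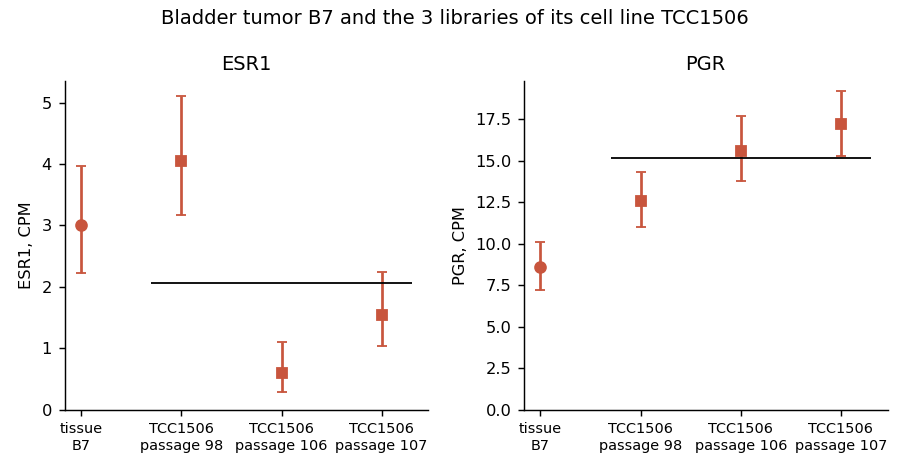
CPM of ESR1 (left) and PGR (right) in the bladder tumor B7 (circle) and in the 3 libraries of its cell line TCC1506 (squares, by passage), with exact 95% Poisson intervals and the mean of the line as a horizontal bar. The ESR1 level of B7, 3.00 CPM, lies within the range of the libraries, and its PGR level, 8.57 CPM, lies below all of them.

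Per length, TCC1506 carried 14.8 times more PGR than ESR1 (7.03 ± 0.628 against 0.476 ± 0.443 TPM, SD, n = 3), which is the same side as in B7. The size of this ratio rested on the library of passage 98. It was 6.57 in that library, 54.9 at passage 106 and 23.5 at passage 107, and 32.4 from the means without passage 98. PGR at 6.40 to 7.66 TPM exceeded 43.0% to 46.6% of the genes detected in these libraries, and ESR1 exceeded 9.85% to 26.5%. ESR2 was at 0 in all 3. Of the leukocyte markers, CSF1R and TYROBP were at 0 counts in TCC1506 and SPI1 at 1 count, while LAPTM5 had 43 counts (0.518 TPM) and CD74 3592 counts (128 TPM).

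Between the 5 primary TCC tissues and the 3 PAC or PAC metastasis tissues, the levels of PGR did not overlap, at 7 to 140 counts against 0 to 3, while those of ESR1 did, since B7 lay below P2 and Ln4.2. By counting error, however, PGR in B8, B9 and B10 was not told apart from that in Ln4.2 and P2, as their intervals overlapped. The log2 fold change (TCC over PAC) was 4.80 (SE 1.51) for PGR, with an adjusted p of 0.101 by edgeR, and 2.58 (SE 1.35) for ESR1, with an adjusted p of 0.28. No gene passed the threshold (0% of 14843), although 3527 had an unadjusted p under 0.05, among them PGR (p = 0.0114) but not ESR1 (p = 0.0876). DESeq2 called 1500 genes, with PGR among them (4.90, adjusted p = 0.00478) and without ESR1. The 4 bladder tumors against the 5 other tissues gave log2 fold changes of 2.82 for ESR1 (adjusted p = 0.124) and 1.45 for PGR (adjusted p = 0.503). The PAC tissues Ln4.2 and Ln4.3 share a dog, and sex and organ go with these groups.

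Of 4 other nuclear receptors, NR1H3, a sensor of oxysterols, was lower in the 8 cell lines than in the 9 tissues (log2 fold change of -3.24, SE 0.78, edgeR adjusted p = 0.0046), and NR1H4, HNF4G and RARB were not called. In the pairs none of the 4 was called by edgeR, while 3 had an unadjusted p under 0.05 and DESeq2 called 3, beside 30.3% and 19.2% of all genes. They had no common direction, with log2 fold changes of -6.18 for RARB, -3.54 for NR1H3, 1.46 for HNF4G and 2.81 for NR1H4 (median -1.04, against -0.04 over all genes).

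Partners of these receptors were measured in all samples. None of the 9 coregulators and chaperones, such as HSP90AA1, which holds unbound steroid receptors, and CREBBP, a histone acetyltransferase, was called by edgeR between cell lines and tissues. In the pairs 2 of them had an unadjusted p under 0.05 and DESeq2 called 0, beside 30.3% and 19.2% of all genes. In all samples 4 of them had such a p and DESeq2 called 1, beside 43.0% and 21.2% of all genes. The median log2 fold change of these 9 coregulators and chaperones was 0.22 in both comparisons. Their summed level was 2400 to 5120 TPM in the cell lines and 1740 to 4210 TPM in the tissues. Of 9 genes described as estrogen-responsive, 1 was called in all samples, namely SYBU, a linker of cargo to kinesin, which was higher in the cell lines (1.65, SE 0.43, adjusted p = 0.00795), as were 3.82% of all genes. CCND1, BCL2, IRS1, IGFBP4, PRLR, EGR3, VEGFA and MREG were not called. In the pairs edgeR called none of the 9, while 5 had an unadjusted p under 0.05 and DESeq2 called 3, beside the 30.3% and 19.2% of all genes.

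Of 6 genes of steroid and sterol metabolism, 5 were tested and 0 called by edgeR or DESeq2 in either comparison, with 1 at an unadjusted p under 0.05 in each. Of all genes, 30.3% had such a p in the pairs and 43.0% in all samples, and DESeq2 called 19.2% and 21.2%. Of the prostate markers, FOLH1 and HOXB13 were tested and not called by edgeR (0 at an unadjusted p under 0.05, and 1 called by DESeq2 in the pairs), while KLK2 was too low for the test. The basal epithelium marker TP63 was not called by edgeR, with an unadjusted p above 0.05, but it was by DESeq2 in both comparisons. In the comparison of all samples the fibroblast marker that fell most was COL1A2 (-15.91), followed by POSTN (-12.30). CSF1R (-13.02) and TYROBP (-12.45) led the leukocyte markers and KDR (-10.62) and TEK (-8.46) the endothelium markers, each with an edgeR adjusted p of 2.14e-05 or less. TYROBP was at 0 counts in all 8 cell lines and CSF1R in 6 of them, so the size of these values and their order depend on the prior count. In the pairs, POSTN (-11.70), CSF1R (-12.83), SPI1 (-11.47) and KDR (-10.22) passed by edgeR, and no other marker did. DESeq2 called 5 of 5 fibroblast, 5 of 5 leukocyte and 3 of 4 endothelium markers in the pairs, as well as ACTA2, and 0 of 5 epithelium markers. By edgeR, 4 fibroblast, 5 leukocyte and 3 endothelium markers, ACTA2 and 1 epithelium marker had an unadjusted p under 0.05. Among the 8 cell lines, 8 of the 8 estrogen-responsive genes tested differed, and 3 of 9 coregulators, beside the 68.6% of all genes. Between TCC and PAC tissues edgeR called no gene of any list, while 27 of the 50 list genes tested had an unadjusted p under 0.05 and DESeq2 called 16, beside 23.8% and 10.1% of all genes.

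**Figure D5:**
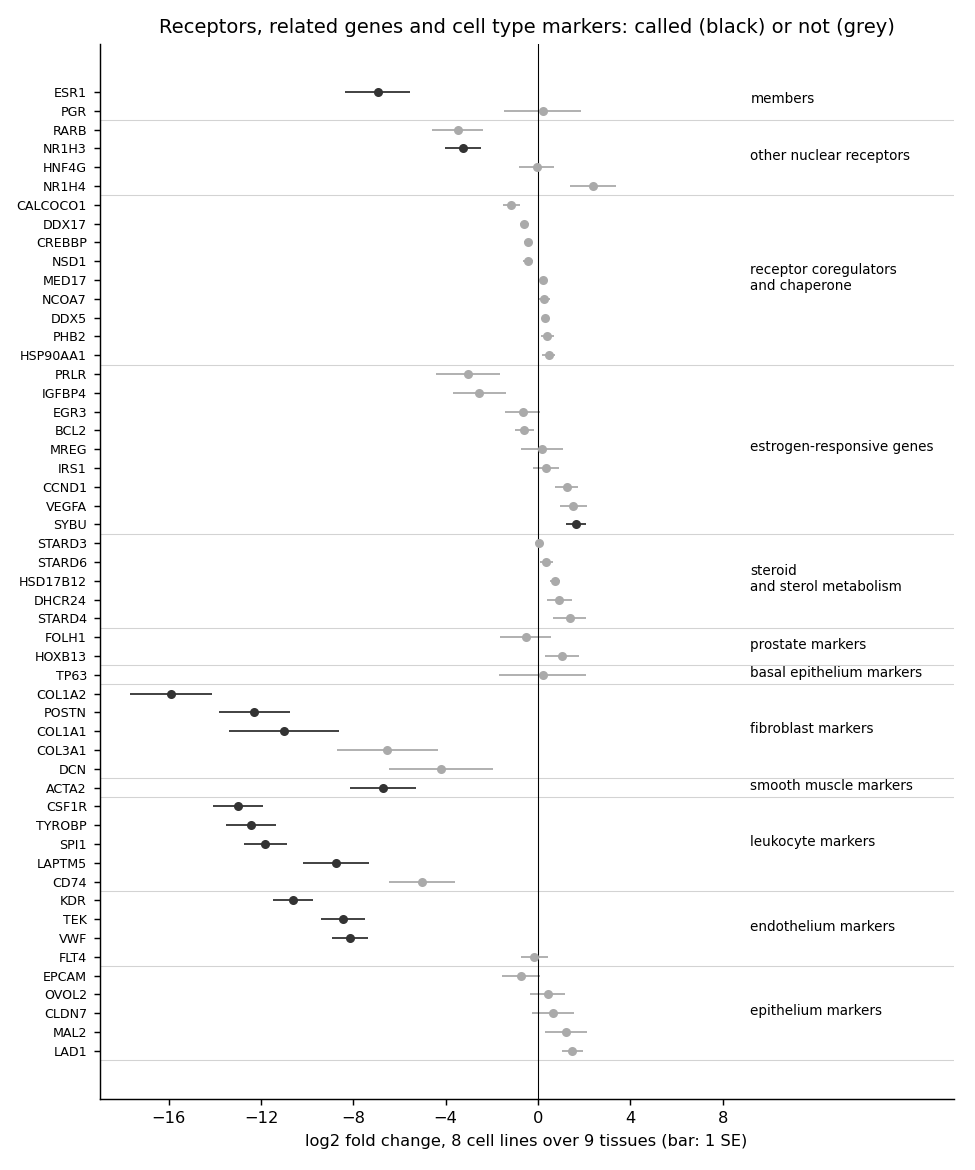
Log2 fold changes of the 8 cell lines over the 9 tissues for the receptors and the lists of related genes and cell type markers, with bars of 1 SE (edgeR). Genes past the threshold are black and others grey. ESR1 lies at -6.94 among the stromal and leukocyte markers on the left, whereas the coregulators lie close to 0.

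Genes whose levels over the 9 tissues were most like that of ESR1 were sought among 1063 genes with a symbol, by Pearson r of log2(CPM + 1). Symbols came from the study's tables and covered 1097 of the 32183 identifiers, so most genes were outside this search. FOLH1, the prostate-specific membrane antigen, had the highest r of 0.91, and r was 0.85 without Ln4.3 and B9. It was followed by NFE2L2, the regulator of the oxidative stress response (0.89), the homeobox gene SHOX2 (0.86), the glucose transporter SLC2A10 (0.85) and the homeobox gene IRX2 (0.85). Without Ln4.3 and B9, r was 0.78 for NFE2L2, 0.68 for SHOX2, 0.71 for SLC2A10 and 0.76 for IRX2. FOLH1 was at 164, 90.6 and 71.0 CPM in B8, B9 and B10 and at 3.44 CPM in Ln4.3, the tissue lowest in ESR1.

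For PGR, the integrin subunit ITGA3 came first with r = 0.89, then OGFOD1 (0.86), MZT1 (0.86), ASNSD1 (0.85) and SREBF1, a regulator of lipid synthesis (0.84). Without B7 and P6.1, the r of MZT1 was 0.90 and that of ITGA3 0.74, but ASNSD1 dropped to 0.13 and SREBF1 to 0.33, so their likeness rests on these tissues. ITGA3 was at 1420 CPM in P6.1 and 1290 CPM in B7 and at 103 to 600 CPM in the others. These values are ranks in a search over many genes and 9 tissues, which share dogs and tissue composition.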

How the data were processed

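Per the labels and the study's methods, the authors trimmed single reads with Trimmomatic 0.36, aligned them with STAR 2.5.3 to CanFam3.1 and quantified Ensembl genes with RSEM 1.3.0. They deposited expected counts and effective lengths per lane, not normalized. Whether counting used strand is not given in the sources used here, so reads of overlapping antisense genes cannot be told apart.

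Expected counts were summed over 4 lanes and rounded, then pooled per cell line except in the comparison among lines. edgeR 4.0.16 (R 4.3.3; TMM, quasi-likelihood F test, Benjamini-Hochberg over all genes with a mean of at least 10 counts) called genes at an adjusted p of 0.01 and a fold change of 2. The test over all lines at once used the adjusted p alone, while the contrasts of 2 lines used both. The pair was a covariate in the 5-pair fit, since line and tissue share a dog. Deviations of a line and its own tissue correlated at -0.11 to 0.20. The own tissue was the closest of the 5 for TCC1506 and Metadcarc1511.3, but not for Adcarc0846, TCC1509 and Metadcarc1511.2. SE is the log2 fold change over the square root of F. DESeq2 1.42.0, other filters, normalizations and sample sets, and leaving out each sample were alternatives. Intervals used scipy 1.17.1 (Python 3.11.15).

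Symbols came from the study's tables. Adcarc1258, P1 and P3 were not used here. Lanes of Adcarc0846 whose labels count upward were assigned by title. Named genes were the receptors, up to 2 called genes per list with the largest fold change in each comparison of cell lines with tissues, and the 5 genes most like ESR1 and PGR. Other list genes named with values (OVOL2, CLDN7, MAL2, CD74 and further markers) were chosen after their values were seen. Of the lists, 2 genes are not reported here. The receptors and lists were chosen with earlier results of these data known.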

Additional observations from a re-analysis of the deposited data

Results flagged for a closer look

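In 9 sets of samples, the gap of the highest or lowest sample to its nearest neighbour was divided by the range. The sets were the 3 receptors in the 9 tissues, in the 5 primary TCC tissues and in the 8 cell lines. Chance would flag about 1 in 20 sets if values were independent and normally distributed. These CPM values are skewed, many lie at or near the floor, and the primary TCC tissues are among the tissues. That rate therefore does not hold here, and the flags only describe which samples stood apart. In 4 sets the highest sample stood apart from the others. ESR1 in the cell lines was set apart by TCC1506 (ratio 0.928) and so was PGR (ratio 1.0). The ratio of PGR follows from its lack of counts in all other lines. ESR2 in the tissues was set apart by Ln6.2 (ratio 0.979) and PGR in the tissues by B7 (ratio 0.617). TCC1506 and B7 come from the same dog.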

How the results depend on the processing

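PGR among the cell lines passed in all alternatives, with the replicate block (edgeR adjusted p = 3.41e-05) and with each library left out (1.35e-06 to 3.65e-05). All its counts are of TCC1506, so these fits repeat its presence in that line. ESR1 among the lines passed only without a count filter (1.81e-09), since it was not tested otherwise. Same-numbered libraries of different lines had a median correlation of 0.25 in their deviations, ranging from -0.10 to 0.84, against a median of -0.13 (-0.72 to 0.39) for libraries with different numbers. No source names a shared batch, and the block gave 9827 called genes against 9006.

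In the 5 pairs, ESR1 had 1 sign in all alternatives and passed by DESeq2 alone (-6.78). With a pair left out it ranged from -7.75 to -5.63. PGR reversed without the pair block (0.33), and with a pair left out ranged from -4.28 to -1.66, in 4 fits, since it fell under the filter without B7 and TCC1506. The number of called genes depended on the setting, at 246 in the fit reported, 1152 at an adjusted p of 0.05, 2924 by DESeq2, 774 without the block, 32 with both pairs of 1 dog summed, 0 in the tissues' series of sample numbers, 0 in the TCC pairs alone, 1665 in the PAC metastasis pairs alone, and with a pair left out 0 without that of Ln4.2, 8 without Ln4.3, 12 without P2, 64 without P6.1 and 477 without B7.

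Over all samples, ESR1 lost its call with the dog as a covariate (-7.10) and in the tissues' series of sample numbers (-5.55). PGR reversed by DESeq2 (-4.41), with replicate 1 only (-0.07), with the dog as a covariate (-3.93) and without TCC1506 (-8.60), within a range of -8.60 to 1.27 (the latter without B7) with a sample left out. The calls numbered 1364 with the study's count filter and 88 in the tissues' series, against 2438.

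Between TCC and PAC tissues, PGR passed by DESeq2 alone (4.90), and with a tissue left out ranged from 3.67 to 6.06, ESR1 from 2.02 to 3.1. The calls numbered 628 at an adjusted p of 0.05, 1500 by DESeq2, 63 without a filter, 4 with 2 tissues of 1 dog summed and 0 to 9 with a tissue left out, namely 9 without Ln4.3, 1 without P2 and 0 in the others. The cause of these shifts was not tested. Without TMM factors, 48 of 51 CPM values moved by less than their error, and ESR1 was 148 CPM in B9, 106 in B10 and 0.163 in Adcarc1508. Counts of 3 or less limit ESR2, and PGR outside TCC samples, to statements on detection.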
